A study of Mus musculus with 11 samples.

Results

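The genes described here encode the fibrillin microfibril and the elastic fibre: the fibrillins Fbn1 and Fbn2, the microfibril-associated proteins Mfap2, Mfap4 and Mfap5, elastin (Eln), and the fibulins Fbln1, Fbln2, Fbln5 and Efemp2. They were chosen by symbol, 10 genes of the 24718 in the count table, with earlier results of these data known. All 10 passed the low-count filter that left 17838 genes for testing. RNA was sequenced from marrow mesenchymal stem and progenitor cells of female Lepr-Cre;LSL-tdTomato+/- mice. In these mice, Cre under the leptin receptor gene switches on a red reporter, and the cells were sorted on that reporter. Every mouse of every group carried the Cre and the reporter, so reporter-positive cells mark descent from cells that had used the leptin receptor gene, not one present cell state. The PBS group (n = 4) had 4 intravenous injections of saline. The DOX1X group (n = 3, young adults) had 1 intravenous dose of doxorubicin at 10 mg/kg. The DOX4X group (n = 4, 8 to 10 weeks old) had 4 intravenous doses of 5 mg/kg with 1 week between them. Cells of all groups were collected 8 weeks after treatment. Doxorubicin is a chemotherapy drug that damages DNA through topoisomerase II, and the design compares what 1 and 4 doses leave in these cells. DOX1X and PBS therefore differ in the number of injections as well as in the drug, and DOX4X and DOX1X differ in the size, number and spacing of doses.

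Fibrillins are long, cysteine-rich glycoproteins that join end to end into beaded microfibrils outside the cell. Microfibrils carry latent TGF-beta complexes and BMPs, and they are the scaffold on which tropoelastin is laid down and cross-linked by lysyl oxidases into elastic fibres. Fibulins bridge elastin, microfibrils and lysyl oxidases. In marrow and bone, fibrillin microfibrils are known as a store of TGF-beta and BMP that bears on bone formation, while elastic fibres belong mainly to vessel walls.

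Library totals were 29540422 to 42784036 counts for PBS, 33496356 to 42002065 for DOX1X and 31129352 to 36888310 for DOX4X. The sorted cells carried the markers of marrow stroma in every library. The summed level of 10 marrow stromal markers, Lepr and Cxcl12 among them, was 67551 to 77592 CPM in the PBS libraries (CPM being a gene's counts scaled to library size), 61286 to 77185 CPM in the DOX1X libraries and 61688 to 72538 CPM in the DOX4X libraries. One control library, PBS 4, has a title that begins with the drug's abbreviation, while its treatment label and library name are those of a PBS control. It was kept as PBS 4, and the members' differences, overlap counts and correlations are also given without it. Column names place PBS 1 to 4 and DOX1X 1 and 2 on flow cell 1, and DOX1X 3 and all DOX4X libraries on flow cell 2. DOX4X and PBS thus share no flow cell, and a fit with flow cell as a term separates them only through the 3 DOX1X libraries. The markers of other cells were not level between groups. The blood cell marker score, the centred mean log2 CPM of 30 genes, had a PBS mean of -0.64 ± 0.43 (SD, n = 4), a DOX1X mean of 0.45 ± 0.71 (n = 3) and a DOX4X mean of 0.30 ± 0.57 (n = 4). No gene of any marker list was at 0 in all libraries. In sorted bulk RNA, fewer cells of a type and less RNA per cell cannot be told apart.

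Promoter sequences are shown for 3 of the members that were lower in DOX4X at an unadjusted p under 0.05, to show the DNA just upstream of genes whose levels went the same way. RefSeq's promoter table for GRCm38.p6 matched 6 of the 10 members, Fbn1, Mfap2, Fbln1, Fbln2, Fbln5 and Efemp2. The windows of Fbn1 and Fbln2 lie in annotated exons and are not printed. Each sequence covers the 250 bases before the annotated start that lies nearest the gene's 5′ end, read 5′ to 3′ on the gene's own strand. Capitals mark matches, on either strand, to 4 motifs: TATAAA for the TATA box, GGGCGG for the GC box, CCAAT for the box of that name, and TGAGTCA for the AP-1 site. In the printed windows no match overlaps another.
Mfap2, chr4:141010174-141010423, plus strand: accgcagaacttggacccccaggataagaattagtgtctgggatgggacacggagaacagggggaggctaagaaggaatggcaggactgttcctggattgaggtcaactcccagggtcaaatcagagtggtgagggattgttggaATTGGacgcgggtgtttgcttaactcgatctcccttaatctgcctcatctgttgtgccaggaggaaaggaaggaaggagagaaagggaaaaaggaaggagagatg
Fbln5, chr12:101819120-101819369, minus strand: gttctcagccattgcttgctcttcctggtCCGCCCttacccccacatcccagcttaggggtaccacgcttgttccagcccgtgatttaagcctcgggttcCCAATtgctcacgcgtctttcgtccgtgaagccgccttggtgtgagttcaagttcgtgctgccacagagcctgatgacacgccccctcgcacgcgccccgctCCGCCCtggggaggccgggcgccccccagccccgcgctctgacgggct
Efemp2, chr19:5473696-5473945, plus strand: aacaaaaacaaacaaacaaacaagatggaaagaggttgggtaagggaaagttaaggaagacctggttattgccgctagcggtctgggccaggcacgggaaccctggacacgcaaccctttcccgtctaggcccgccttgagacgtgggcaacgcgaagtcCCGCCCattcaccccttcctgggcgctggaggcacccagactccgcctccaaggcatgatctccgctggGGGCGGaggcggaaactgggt
The Fbln5 window held 2 GC boxes and 1 CCAAT box and the Efemp2 window 2 GC boxes, while the Mfap2 window held 1 CCAAT box, read on the other strand, and no GC box. GC content was 65.2% for Fbln5, 59.2% for Efemp2 and 51.2% for Mfap2, against a median of 52.4% over the 32851 promoters in the table. Among those promoters, 32.7% held a GC box, 33.8% a CCAAT box, 12.4% the TATA box and 4.46% the AP-1 letters. None of the 3 printed windows held TATAAA or TGAGTCA.

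Levels between genes were compared as CPM per kb of exon. In PBS, Fbln5, the fibulin that tethers elastin to integrins at the cell surface, stood first at 572 ± 25.6 CPM per kb (SD, n = 4). Its share of the summed per-kb level of the 10 genes was 63.0 ± 2.05% in PBS, 62.2 ± 3.56% in DOX1X and 62.5 ± 4.04% in DOX4X. Fbn1, the main fibrillin of adult microfibrils, followed at 120.0 ± 22.3 CPM per kb in PBS, ahead of the lysyl oxidase-binding fibulin Efemp2 at 77.3 ± 7.29. Fbln1 at 66.5 ± 16.9 and Mfap2 at 62.1 ± 3.66 came next. The other 5 genes were all under 6 CPM per kb in every PBS library. In this lower group Fbn2 had a PBS mean of 4.48 ± 0.703 CPM per kb, Eln 2.84 ± 1.56, Mfap5 1.64 ± 0.491, Fbln2 1.16 ± 0.282 and Mfap4 0.752 ± 0.461. Fbln5, Fbn1, Efemp2, Fbln1 and Mfap2 were thus each more abundant per kb than Eln in every PBS library. Within this order, the PBS libraries of Efemp2 and Fbln1, of Fbln1 and Mfap2, and of each neighbouring pair from Fbn2 downwards overlapped. Those of Fbln5 and Fbn1, of Fbn1 and Efemp2, and of Mfap2 and Fbn2 did not. Scaled by coding length in place of exon length, Efemp2 (188 CPM per coding kb in PBS) and Fbn1 (169) changed places, and so did Mfap2 (136) and Fbln1 (118). On that scale Mfap5 (11.9) and Eln (8.91) stood above Fbn2 (6.79), while Fbln5 stayed first.

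**Figure D1:**
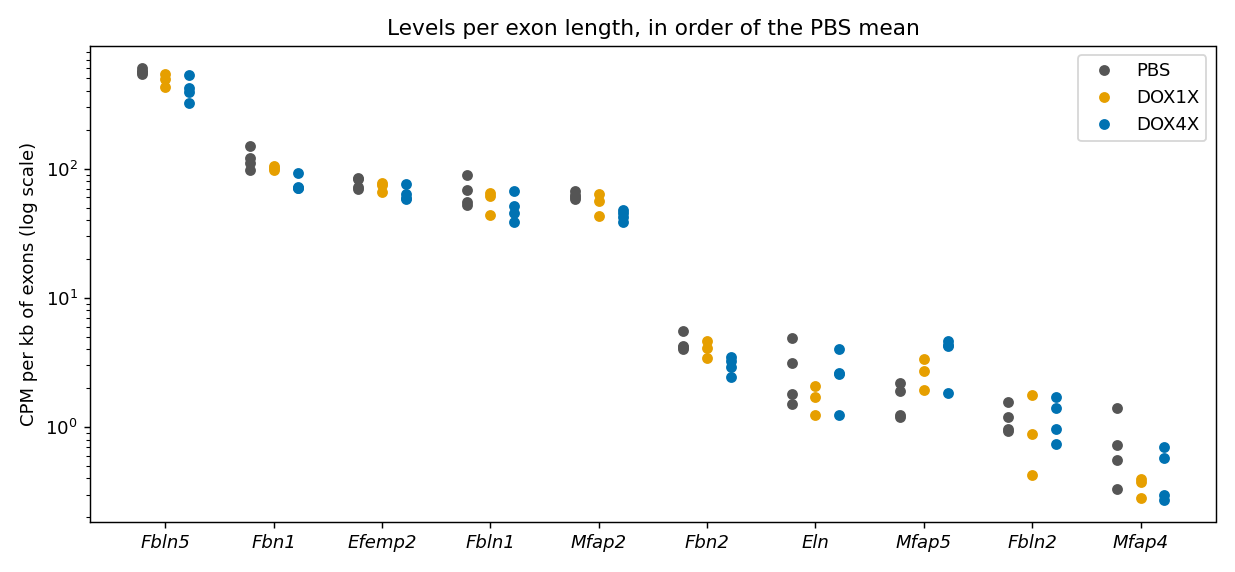
Level of each gene in CPM per kb of exon (log axis), one point per library, in order of the PBS mean from left to right. Fbln5 lies highest in all groups, and a gap separates the 5 abundant genes from Fbn2, Eln, Mfap5, Fbln2 and Mfap4.

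After 4 doses, the 2 fibrillins, Mfap2 and Fbln5 stood lower than in any PBS library, and Mfap5 stood higher in 3 of the 4 mice. None of these differences passed the test across all genes, and flow cell and dose cannot be told apart for them. Of the 10 genes, 0 had an adjusted p under 0.05 for DOX4X against PBS (edgeR's quasi-likelihood test, Benjamini-Hochberg over 17838 genes), where 0.146% of all genes did. At an unadjusted p under 0.05, 5 of the 10 were lower (Fbn1, Fbn2, Mfap2, Fbln5 and Efemp2), against 7.85% of all genes, and 1 was higher (Mfap5), against 6% of all genes. Groups did not overlap, with DOX4X lower, for 4 of the 10, against 4.68% of all genes. In all, 8 of the 10 had a negative log2 fold change, against 47.8% of all genes, and their median was -0.42 against 0.01 over all genes. Because the members were chosen with earlier results of these data known, these shares are a description and not a test of the list. DESeq2, a test that called 590 of the 17838 genes here where edgeR called 26, put 5 of the members past the threshold: Fbn1, Fbn2, Mfap2 and Fbln5 lower and Mfap5 higher. Without PBS 4, edgeR put Fbn1 past the threshold, and the log2 fold changes of the other members named at the unadjusted p were -0.59 for Fbn2, -0.53 for Mfap2, 1.37 for Mfap5, -0.48 for Fbln5 and -0.31 for Efemp2, with edgeR adjusted p values of 0.105 to 0.225. The members whose DOX4X libraries were all below PBS were then the same 4, against 8.73% of all genes.

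**Figure D2:**
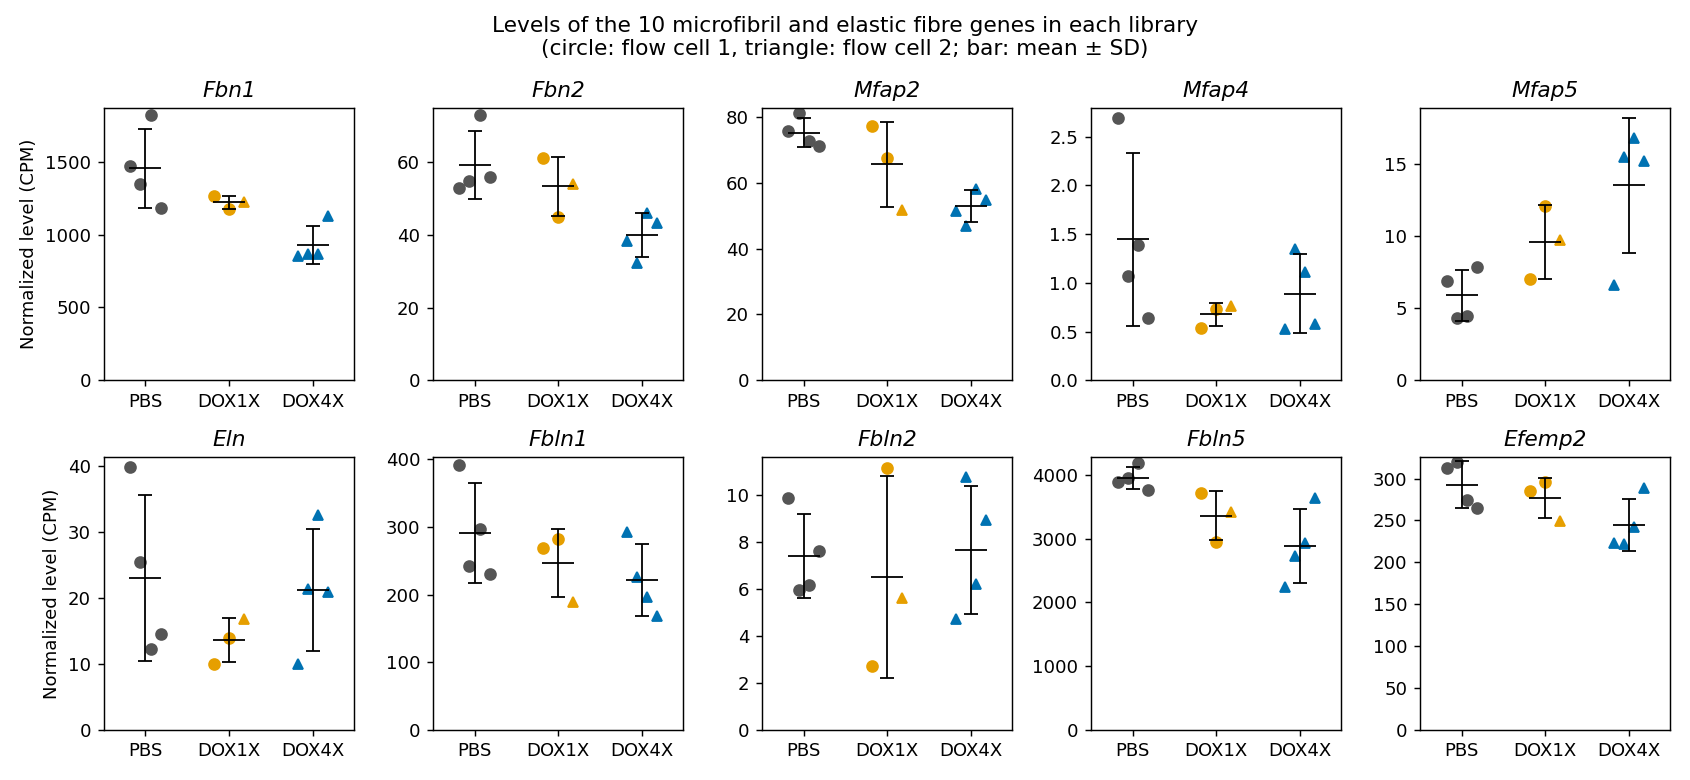
TMM-scaled CPM of each gene in every library, with the group mean and SD; circles are libraries of flow cell 1 and triangles of flow cell 2. For Fbn1, Fbn2, Mfap2 and Fbln5 every DOX4X point lies below every PBS point, and for Mfap5 the library DOX4X 1 lies among the PBS points.

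Fbn1 was the most abundant fibrillin and the member with the smallest p. Its levels were 1469.5, 1345, 1821 and 1186 CPM in PBS 1 to 4, and 1266, 1175 and 1226 CPM in DOX1X 1 to 3. In DOX4X 1 to 4 they were 853, 869, 865 and 1127 CPM. The DOX1X libraries lay around the lowest PBS value, and the DOX4X libraries lay below both other groups, with DOX4X 4 nearest to them. DOX4X against PBS gave a log2 fold change of -0.65 (SE 0.13, 95% interval -0.94 to -0.36, edgeR adjusted p = 0.104), a level 36.2% lower. Without PBS 4 it was -0.73, and this was past the threshold (edgeR adjusted p = 0.038). Adding a flow cell term left it at -0.65 with a wider SE of 0.27 (edgeR adjusted p = 0.476), and with the blood marker score as a covariate -0.66 (SE 0.17). The direction was the same in all 23 alternative fits.

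Fbn2, the second fibrillin and best known from developing tissue, stood at 52.9, 54.96, 73.0 and 55.9 CPM in PBS 1 to 4. Its levels were 61.1, 45.0 and 53.9 CPM in DOX1X 1 to 3 and 38.3, 32.3, 46.0 and 43.2 CPM in DOX4X 1 to 4. DOX1X spanned values on both sides of the lowest PBS library, while all DOX4X libraries but DOX4X 3 were below all the others. Relative to PBS, the log2 fold change in DOX4X was -0.57 (SE 0.14, edgeR adjusted p = 0.133), and a flow cell term gave -0.59 (SE 0.28). The ratio of Fbn1 to Fbn2 per kb averaged 26.8 ± 2.92 (SD, n = 4) over PBS mice, 25.3 ± 2.97 (n = 3) over DOX1X mice and 25.6 ± 4.06 (n = 4) over DOX4X mice. Group means of this ratio thus lay within 1 SD of each other.

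The microfibril-associated glycoproteins Mfap2 and Mfap5 (MAGP-1 and MAGP-2) bind fibrillins, and Mfap2 is also known to bind active TGF-beta. Their log2 fold changes for DOX4X against PBS had opposite signs. Mfap2 stood at 75.7, 81.2, 72.8 and 71.1 CPM in PBS 1 to 4, at 77.3, 67.6 and 51.9 CPM in DOX1X 1 to 3, and at 51.6, 46.9, 58.2 and 54.9 CPM in DOX4X 1 to 4. PBS and DOX4X were each tight and apart, and DOX1X was split, with DOX1X 3 at the DOX4X level. For DOX4X against PBS the log2 fold change was -0.51 (SE 0.11, edgeR adjusted p = 0.116), and without DOX1X 3 its edgeR adjusted p was 0.048. DOX1X 3 is also the only DOX1X library on flow cell 2. A flow cell term left the Mfap2 difference at -0.02 (SE 0.17, edgeR adjusted p = 0.978). Flow cell and dose therefore cannot be told apart for Mfap2. This limit holds for the other members too, because PBS and DOX4X share no flow cell and the term rests on DOX1X 3 against DOX1X 1 and 2.

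Mfap5 stood at 6.88, 4.31, 4.47 and 7.84 CPM in PBS 1 to 4, at 6.97, 12.1 and 9.73 CPM in DOX1X 1 to 3, and at 6.58, 15.5, 16.8 and 15.2 CPM in DOX4X 1 to 4. DOX4X 2, 3 and 4 were above every other library, and DOX4X 1 was inside the PBS range. DOX4X differed from PBS by a log2 fold change of 1.20 (SE 0.31, 95% interval 0.53 to 1.87, edgeR adjusted p = 0.140), a 2.30-fold higher level. For DOX1X against PBS it was 0.70 (SE 0.32, edgeR adjusted p = 0.690). With a flow cell term DOX4X against PBS gave 1.2 (SE 0.64), and within flow cell 1 DOX1X 1 and 2 against PBS gave 0.69 (SE 0.38). The per-kb ratio of Mfap5 to Mfap2 averaged 0.027 ± 0.009 (SD, n = 4) over PBS mice, 0.051 ± 0.018 (n = 3) over DOX1X mice and 0.086 ± 0.030 (n = 4) over DOX4X mice. It was 0.043 in DOX4X 1 and 0.093 to 0.111 in the other DOX4X mice, against at most 0.037 in PBS, so PBS and DOX4X did not overlap. That ratio combines values that had already been seen and was not tested. Mfap2 was the more abundant of the pair per kb in every library.

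Mfap4, a fibrinogen-domain protein that binds fibrillin and elastin, was near the limit of the data, with 19 to 106 counts per library. It stood at 0.634 to 2.69 CPM in PBS, 0.538 to 0.762 CPM in DOX1X and 0.523 to 1.35 CPM in DOX4X, with PBS 1 highest. Fitted log2 fold changes were -0.71 (SE 0.45) for DOX4X and -1.10 (SE 0.50, unadjusted p = 0.0475, edgeR adjusted p = 0.690) for DOX1X against PBS. Mfap4 overlaps the exons of Mapk7 on the other strand in GENCODE M21, and Mapk7 had 924 to 1324 counts per library. The library kit does not mark strand, so reads in shared exons cannot be assigned to either gene. Exons of Fbn1 overlap those of Gm9913 in the same way, which had 62 to 124 counts per library against 28766 to 57926 for Fbn1, and those of Fbn2 and Eln overlap Gm26507 and Gm30003, which were not analysed here.

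Eln, the elastic core protein, varied widely between mice of a group. It stood at 39.9, 25.5, 12.2 and 14.6 CPM in PBS 1 to 4, at 10.0, 13.9 and 16.8 CPM in DOX1X 1 to 3, and at 9.99, 21.4, 32.6 and 20.9 CPM in DOX4X 1 to 4. The 3 groups overlapped, and PBS held both the highest value and the widest spread. Fitted log2 fold changes were -0.12 (SE 0.39, 95% interval -0.98 to 0.74, edgeR adjusted p = 0.932) for DOX4X against PBS and -0.76 (SE 0.43, edgeR adjusted p = 0.736) for DOX1X against PBS. The sign for DOX4X turned positive without PBS 1 (0.28), without DOX4X 1 (0.12) and with the blood marker score as a covariate (0.71), so no direction is given for Eln.

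The libraries with high Eln were those with high levels of smooth muscle and pericyte markers. The summed level of 10 such markers (Acta2 and Myh11, contractile proteins of smooth muscle, among them) was 1797, 1008, 564 and 733 CPM in PBS 1 to 4 and 543, 728 and 897 CPM in DOX1X 1 to 3. In DOX4X 1 to 4 it was 648, 1297, 1558 and 1073 CPM. The libraries thus stood in much the same order by these markers as by Eln. Over the 11 libraries, the Pearson r between log2 Eln and the mean log2 marker level was 0.95 and Spearman's rho 0.95 (permutation test with 100000 resamples, two-sided, p = 5.0e-05, adjusted p = 0.005 over 100 member and marker list pairs). On deviations from the group means r was 0.97 (exact permutation p = 2.9e-04). Without PBS 4 it was 0.95 over the 10 other libraries. Without PBS 1 and DOX1X 1, the libraries farthest from the median marker level, r was 0.92 (exact permutation p = 8.0e-04, adjusted p = 0.080). This relation was looked at after the values were known, and no other pair of the 100 passed an adjusted p of 0.05. The 10 markers were not level between groups either. All 10 had a negative log2 fold change for DOX1X against PBS (median -0.55), as had 48.8% of all genes tested. For DOX4X against PBS 8 of 10 had a positive one (median 0.19), as had 9309 of all 17838 genes tested. In neither comparison was any of them past the threshold with edgeR. DESeq2 called Des lower in DOX4X, a gene singled out here after its value was seen. Their part in the Eln values was not tested beyond this correlation.

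**Figure D3:**
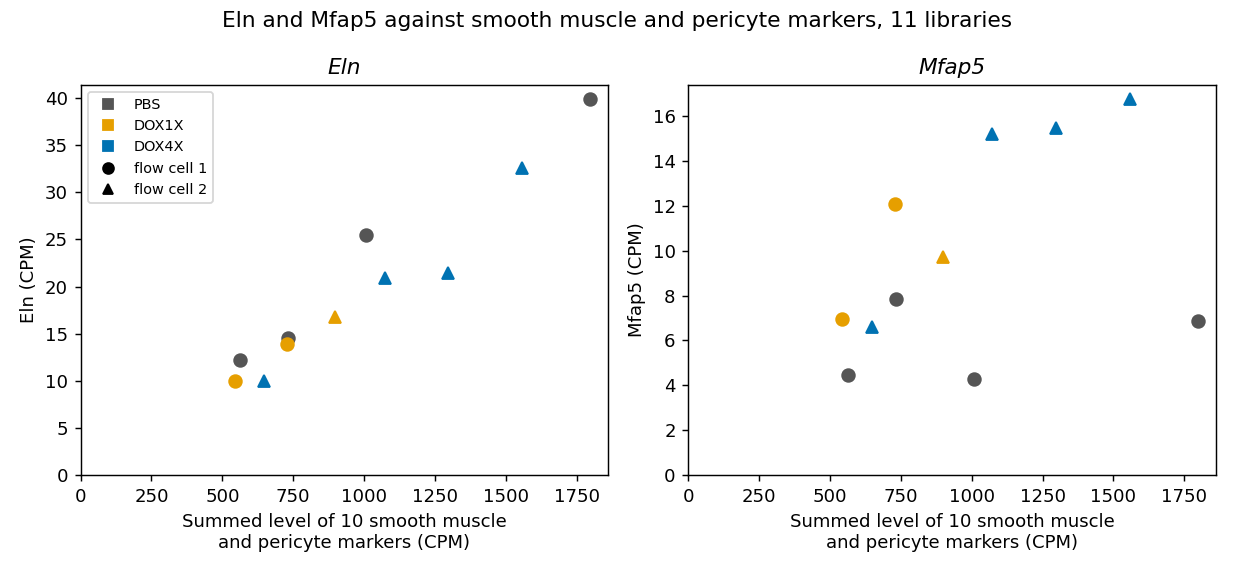
Eln (left) and Mfap5 (right) in CPM against the summed CPM of 10 smooth muscle and pericyte markers, one point per library, coloured by group and shaped by flow cell. Eln follows the markers over all 3 groups (r = 0.95 on the log scale). For Mfap5 r is 0.45, and PBS 1, with the highest markers, has 6.88 CPM, where PBS runs from 4.31 to 7.84 CPM.

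For Mfap5 the relation to these markers did not pass the test. Its r with them was 0.45 (permutation p = 0.168, adjusted p = 0.468) and 0.62 on deviations from the group means (exact permutation p = 0.083). Without PBS 1 and DOX1X 1 it was 0.61 (exact permutation p = 0.082, adjusted p = 0.550). DOX4X 1, the DOX4X library with the least Mfap5, also had the lowest smooth muscle and pericyte markers of its group. PBS 1, with the highest such markers of all, had 6.88 CPM of Mfap5, where PBS ran from 4.31 to 7.84 CPM. The fibroblast and periosteum markers, whose cells are known to express Mfap5, summed to 332 to 881 CPM in PBS, 368 to 514 CPM in DOX1X and 286 to 414 CPM in DOX4X. For DOX4X against PBS 5 of these 7 markers had a positive log2 fold change (median 0.06), as had 9309 of all 17838 genes tested. Among them edgeR called 0, with 1 lower and 1 higher at an unadjusted p under 0.05 (7.85% and 6% of all genes tested). Mfap5 had an r of 0.03 with these markers (adjusted permutation p = 0.974), and 0.10 on deviations from the group means. DESeq2, and edgeR without PBS 4, called Postn lower in DOX4X, a gene likewise singled out after its value was seen. All 10 endothelial markers were higher in DOX4X than in PBS (median log2 fold change 0.89), as were 9309 of all 17838 genes tested. These markers summed to 476 to 898 CPM in DOX4X against 97.3 to 577 CPM in PBS. Of these, 0 passed the threshold with edgeR or DESeq2, and 4 were higher at an unadjusted p under 0.05 with edgeR (6% of all genes tested). Endothelial markers had an r of 0.31 with Mfap5 (adjusted permutation p = 0.639), and -0.08 on deviations from the group means. B lineage markers had an r of 0.56 with Mfap5 (adjusted permutation p = 0.468), and 0.04 on deviations from the group means. All 7 B lineage markers tested were higher in DOX4X than in PBS, where edgeR called 0 and DESeq2 4. The part of endothelial or B lineage RNA in the Mfap5 difference was not tested beyond these correlations. The 7 osteoblast markers summed to 8307 to 14223 CPM in PBS, 8332 to 12260 CPM in DOX1X and 6663 to 8781 CPM in DOX4X. For DOX4X against PBS 6 of the 7 were lower (47.8% of all genes tested), with a median of -0.40. EdgeR called 0, with 3 lower at an unadjusted p under 0.05 (7.85% of all genes tested), and DESeq2 called 3 lower. Without PBS 4 edgeR called 1 of the 7, Dmp1, lower, where it called 80 of all genes. In that fit 6 of the 7 had an unadjusted p under 0.05, as had 2743 of all genes. The r of the osteoblast markers was 0.67 with Fbn1 and -0.58 with Mfap5 (adjusted permutation p = 0.468 for each). Their part in the members' values was not tested beyond these correlations.

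Fbln5 was the most abundant member, and its counts per library were in the range 81558 to 153831. It stood at 3903, 3958, 4191 and 3766 CPM in PBS 1 to 4, at 3719, 2957 and 3417 CPM in DOX1X 1 to 3, and at 2245, 2735, 2931 and 3641 CPM in DOX4X 1 to 4. The PBS libraries lay close together and above all doxorubicin libraries. DOX4X was the most spread group, and DOX4X 4 was within 1 PBS SD of the lowest PBS value. Fitted log2 fold changes were -0.45 (SE 0.13, 95% interval -0.75 to -0.16, edgeR adjusted p = 0.186) for DOX4X against PBS and -0.23 (SE 0.15, edgeR adjusted p = 0.749) for DOX1X against PBS. Under a flow cell term the DOX4X difference was -0.49 (SE 0.27), and within flow cell 1 the DOX1X difference was -0.25 (SE 0.17).

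Efemp2 (fibulin-4), which brings lysyl oxidase to tropoelastin, stood at 313, 320.0, 274 and 264 CPM in PBS 1 to 4. Its levels were 285, 295 and 249 CPM in DOX1X 1 to 3 and 223, 222, 242 and 288 CPM in DOX4X 1 to 4. Only DOX4X 4 reached into the PBS range. The log2 fold change of DOX4X against PBS was -0.26 (SE 0.10, unadjusted p = 0.026, edgeR adjusted p = 0.297), and a flow cell term gave -0.04 (SE 0.20). The exons of Efemp2 overlap those of Mus81 on the other strand, which had 552 to 831 counts against 7600 to 12325 for Efemp2.

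Fbln1, a fibulin of basement membranes and elastic fibres, stood at 392, 242, 297 and 230.5 CPM in PBS 1 to 4, at 269, 282 and 189.7 CPM in DOX1X 1 to 3, and at 293, 226, 197 and 168 CPM in DOX4X 1 to 4. Groups overlapped. The log2 fold change of DOX4X against PBS was -0.40 (SE 0.21, edgeR adjusted p = 0.420), and its sign changed under a flow cell term (0.14, SE 0.38). Fbln2, which binds fibrillin and many matrix proteins, stood at 5.97 to 9.87 CPM in PBS, 2.72 to 11.2 CPM in DOX1X and 4.71 to 10.8 CPM in DOX4X. Its range in PBS lay wholly inside that of each doxorubicin group, and its log2 fold change of DOX4X against PBS was 0.05 (SE 0.38, 95% interval -0.79 to 0.88, edgeR adjusted p = 0.975).

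**Figure D4:**
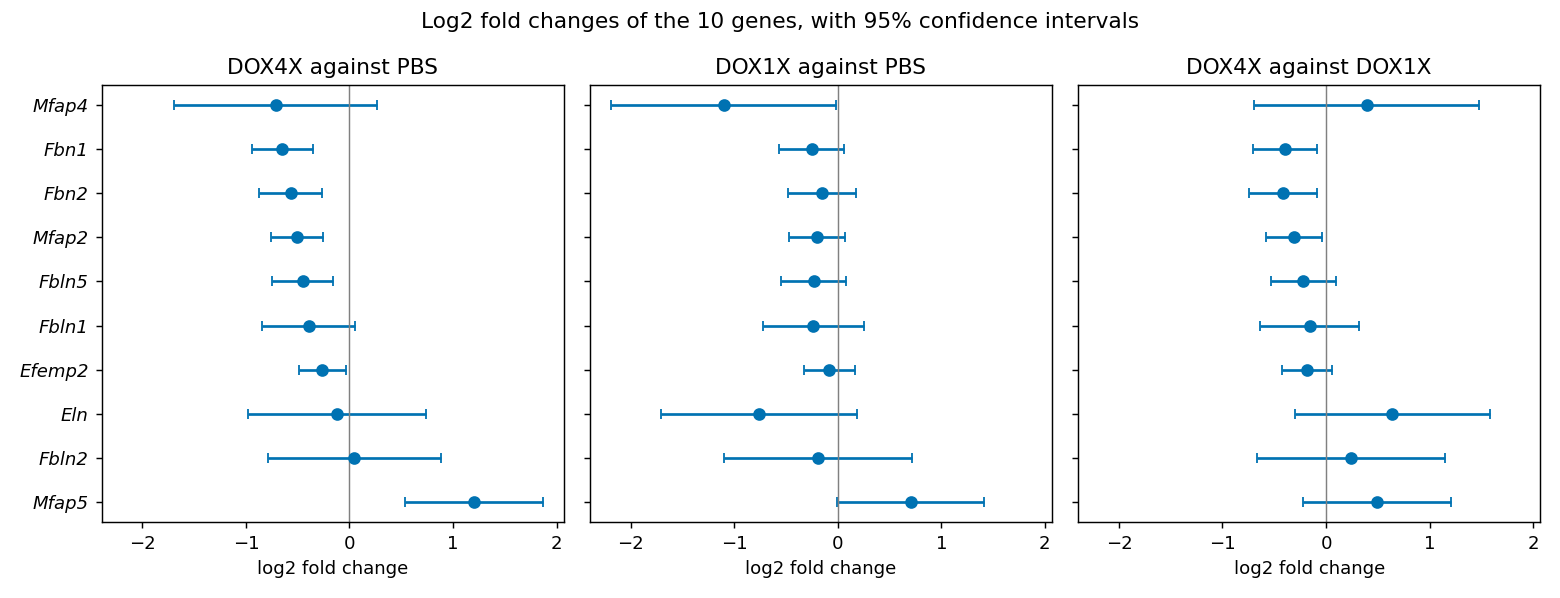
Log2 fold changes of the 10 genes (points) with 95% intervals (bars) in the 3 comparisons, in order of the DOX4X against PBS value. In the left panel the intervals of Fbn1, Fbn2, Mfap2, Fbln5 and Efemp2 lie below 0 and that of Mfap5 above it, before adjustment for the number of genes tested.

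After 1 dose, differences from PBS were smaller for most of the abundant genes. Of the 10 genes, 0 had an adjusted p under 0.05 (0.00561% of all genes tested), and at an unadjusted p under 0.05 only Mfap4 was lower (3.74% of all genes tested) and none was higher (3.42% of all genes tested). In DOX1X, 9 of the 10 had a negative log2 fold change, against 48.8% of all genes, with a median of -0.21 against 0.01 over all genes. The values were -0.25 (SE 0.14) for Fbn1, -0.15 (SE 0.15) for Fbn2 and -0.20 (SE 0.12) for Mfap2. Fbln5 was the only member whose DOX1X libraries were all below PBS (3.82% of all genes tested). Without PBS 4 this held for Fbn1, Mfap4 and Fbln5 (8.54% of all genes tested), and the DOX1X libraries of Mfap5 were then all above PBS (7.55% of all genes tested). DOX4X and DOX1X share their PBS controls, so the signs of the 2 comparisons are not independent.

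DOX4X against DOX1X compares the treated groups directly and uses no PBS library in the difference. Of the 10 genes, 0 had an adjusted p under 0.05 (0.00561% of all genes tested), and at an unadjusted p under 0.05 Fbn1, Fbn2 and Mfap2 were lower in DOX4X (3 of 10, 2.13% of all genes tested). None was higher at that level (2.23% of all genes tested). The log2 fold change was -0.40 (SE 0.14) for Fbn1 and -0.42 (SE 0.15) for Fbn2, with unadjusted p values of 0.0172 and 0.0165 and edgeR adjusted p values of 0.946 and 0.942. Fbn1 was the 1 member whose groups did not overlap (2.79% of all genes tested). Of the 10 members, 6 had a negative log2 fold change, against 50.3% of all genes. Within flow cell 2, DOX4X against the single library DOX1X 3 gave -0.40 (SE 0.21) for Fbn1, -0.43 (SE 0.22) for Fbn2 and -0.24 (SE 0.21) for Fbln5. It gave 0.03 (SE 0.13) for Mfap2, 0.22 (SE 0.31) for Fbln1 and -0.03 (SE 0.16) for Efemp2. These values assume that DOX1X 3 varies like the other libraries.

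**Figure D5:**
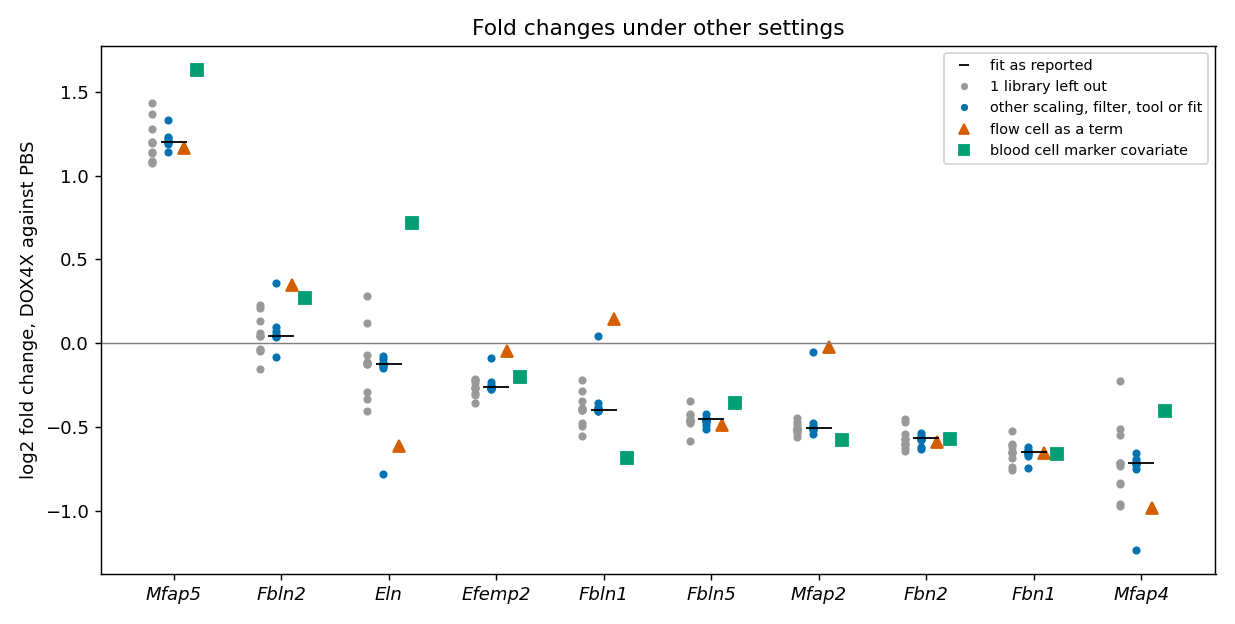
Log2 fold change of DOX4X against PBS for each gene under each alternative fit: 1 library left out (grey), another scaling, filter, tool or fit (blue), flow cell as a term (triangle), blood cell marker score as a covariate (square). Values of Fbn1, Fbn2 and Fbln5 stay below 0 and those of Mfap5 above 0 throughout, while Fbln1, Eln and Fbln2 cross 0 and Mfap2 comes to -0.02 with flow cell as a term.

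Several members varied together over the 11 libraries. Of the 45 pairs, 4 had a Pearson r with an adjusted permutation p under 0.05, all positive (100000 resamples, two-sided, Benjamini-Hochberg over the pairs). Fbn1 and Fbln5 had r = 0.86 (rho 0.92, p = 1.9e-04, adjusted p = 0.009), Fbn1 and Fbn2 r = 0.86 (rho 0.79, p = 0.001, adjusted p = 0.023), Mfap2 and Efemp2 r = 0.82 (rho 0.78, p = 0.003, adjusted p = 0.036), and Fbn2 and Fbln5 r = 0.81 (rho 0.81, p = 0.002, adjusted p = 0.034). By rho, 1 pair passed. On deviations from the group means these r values were 0.65, 0.58, 0.64 and 0.56, and none of the 45 passed (the Fbn1 and Fbln5 pair had an exact permutation p of 0.001 and an adjusted p of 0.052). Without the 2 libraries farthest from the median of the first gene, the r values were 0.84, 0.74, 0.66 and 0.71, and again none of the 45 passed. These fits also had fewer libraries or fewer arrangements to permute. Without PBS 4, 2 of the pairs passed, Fbn1 with Fbln5 (r = 0.88, adjusted permutation p = 0.023) and Fbn1 with Fbn2 (r = 0.87, adjusted permutation p = 0.038). Mfap5 had a negative r with the fibrillins, -0.67 for both Fbn1 and Fbn2, which did not pass the test (adjusted permutation p = 0.096 for each). Those values were -0.15 and -0.26 on deviations from the group means.

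Genes with the pattern most like each of the 3 members with the smallest p were taken from 10745 genes with a mean of at least 5 CPM, by Pearson r over the 11 libraries. For Fbn1 they were Col6a2 (r = 0.96), Serpine2 (0.94) and Col6a1 (0.94), where Col6a1 and Col6a2 encode chains of collagen VI, another beaded microfibril, and Serpine2 a secreted protease inhibitor. On deviations from the group means r was 0.85, 0.78 and 0.80. For Mfap2 they were Nsg1 (0.94), Aldh7a1 (0.93) and Zfp354c (0.92), and for Fbn2 Gxylt1 (0.94), Gk5 (0.94) and Cald1 (0.93). These r values are the highest of many and are given as a description.

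The partners of the microfibril were read from lists with 57 genes in all. Over all 17838 genes tested, 47.8% had a negative log2 fold change for DOX4X against PBS. At an unadjusted p under 0.05, 7.85% were lower and 6% higher with edgeR. Past the threshold were 26 genes with edgeR and 590 with DESeq2. In the TGF-beta and BMP binding list (latent TGF-beta binding proteins and the ligands), 0 of 10 passed the threshold for DOX4X against PBS with edgeR, with 7 lower and a median of -0.31. DESeq2 called 3 of the 10, Tgfb3 (adjusted p = 0.033) and Ltbp3 lower and Bmp4 (adjusted p = 0.024) higher, and limma-voom 0. Tgfb3, a TGF-beta ligand, had means of 416 CPM in PBS, 207 in DOX1X and 174 in DOX4X, with DOX4X below all PBS libraries (log2 fold change -1.26, SE 0.32, edgeR adjusted p = 0.140). DOX1X was uneven, with 155 and 117 CPM in DOX1X 1 and 2 and 349 CPM in DOX1X 3, its only library on flow cell 2. Without DOX1X 3 Tgfb3 was past the threshold (edgeR adjusted p = 0.0486), and a flow cell term moved its DOX4X difference to -2.61 (SE 0.41, edgeR adjusted p = 0.095). That term rests on DOX1X 3 against DOX1X 1 and 2, so flow cell and a difference between mice cannot be told apart. Bmp4, a bone morphogenetic protein, had means of 188, 228 and 291 CPM (0.63, SE 0.18, edgeR adjusted p = 0.175). Of the list, 4 genes were lower and 1 higher at an unadjusted p under 0.05 with edgeR (7.85% and 6% of all genes tested).

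In the cross-linking list (lysyl oxidases and the tropoelastin chaperone Fkbp10), all 6 genes tested were lower in DOX4X than in PBS, with a median of -0.45 and 0 past the threshold with edgeR. At an unadjusted p under 0.05, 4 of the 6 were lower, against 7.85% of all genes. DESeq2 called 3 of the 6 lower, Loxl1 (adjusted p = 1.7e-04), Loxl4 (adjusted p = 0.006) and Fkbp10, and limma-voom called Loxl1 (adjusted p = 0.043). Loxl1, the lysyl oxidase that Fbln5 brings to elastic fibres, stood at 365, 401, 469 and 355 CPM in PBS and at 204, 221, 231 and 303 CPM in DOX4X. Its DOX1X libraries, at 269, 295 and 352 CPM, were all below PBS (3.82% of all genes tested) and overlapped DOX4X. Its DOX4X difference from PBS was -0.73 (SE 0.14) as a log2 fold change, with an edgeR adjusted p of 0.083, and a flow cell term gave -1.05 (SE 0.26). Loxl4 had means of 12.1 CPM in PBS and 7.08 in DOX4X (-0.77, SE 0.19, edgeR adjusted p = 0.132). Without PBS 4 it was past the threshold at -0.93 (SE 0.15, edgeR adjusted p = 0.028).

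Integrins are the receptors through which cells hold fibrillin and Fbln5. Itgb5, which pairs with Itgav, was lower in DOX4X than in PBS (log2 fold change -1.0, SE 0.15, edgeR adjusted p = 0.043). Its levels were 474, 438, 518 and 306 CPM in PBS 1 to 4 and 206, 232, 193 and 235 CPM in DOX4X 1 to 4. Its DOX1X levels were 246, 321 and 281 CPM. It was the 1 gene of 7 tested in that list to pass the threshold with edgeR, and 6 of the 7 were lower (median -0.41). DESeq2 called 3 of the 7 lower, Itgb5, Itgav and Itgb1. Itgav, the alpha chain, gave -0.43 (SE 0.11, edgeR adjusted p = 0.153, DESeq2 adjusted p = 0.0197), and a flow cell term left it at -0.06 (SE 0.20, edgeR adjusted p = 0.948). Among enzymes that cut elastin, Mmp9 (gelatinase B) fell from 75.5 ± 33.1 CPM (SD, n = 4) in PBS to 20.0 ± 2.31 (n = 4) in DOX4X (log2 fold change -1.92, SE 0.27, edgeR adjusted p = 0.043), with 31.3 ± 8.60 (n = 3) in DOX1X. It was the 1 gene of 7 tested in its list to pass with edgeR or DESeq2, of which 5 were lower with a median of -0.29, and Ctsk, the collagen- and elastin-cutting cathepsin K, gave -0.31 (SE 0.10, edgeR adjusted p = 0.208). Both calls were lost in most fits with a library left out. Itgb5 was past the threshold in 2 of 11 (without PBS 4 or DOX1X 3) and Mmp9 in 3 of 11 (without PBS 1, PBS 4 or DOX1X 3), with log2 fold changes over all 23 alternatives from -1.14 to -0.91 for Itgb5 and from -2.08 to -1.16 for Mmp9. A flow cell term also removed both calls (edgeR adjusted p = 0.347 for Itgb5 and 0.463 for Mmp9). So did the blood marker score as a covariate (edgeR adjusted p = 0.133 for Itgb5 and 0.132 for Mmp9) and a fit of PBS and DOX4X alone (edgeR adjusted p of 0.060 and 0.059). Because PBS and DOX4X share no flow cell, flow cell and dose cannot be told apart for Itgb5 and Mmp9 either.

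In the remaining lists, 0 genes passed the threshold for DOX4X against PBS with edgeR, DESeq2 or limma-voom. At an unadjusted p under 0.05 with edgeR 4 were lower (7.85% of all genes tested). Of the ADAMTS and ADAMTSL proteins that act on fibrillin, 5 of 7 tested were lower (median -0.31). Thsd4, also called ADAMTSL6, gave -0.62 (SE 0.24, edgeR adjusted p = 0.289) and Adamtsl4 -0.42 (SE 0.16, edgeR adjusted p = 0.273), both lower at an unadjusted p under 0.05. All 4 of the other microfibril-associated matrix genes were lower (median -0.35), with Vcan, the proteoglycan versican, at -0.40 (SE 0.17, edgeR adjusted p = 0.334), and -0.12 (SE 0.34) under a flow cell term. Of the EMILIN and multimerin genes 2 of 5 were lower (median 0.22), with Emilin1, an elastin-microfibril interface protein, at -0.41 (SE 0.16, edgeR adjusted p = 0.281). The other fibulins tested were all lower (3 of 3, median -0.19), and Efemp1 (fibulin-3) gave -0.19 (SE 0.15, edgeR adjusted p = 0.626). The elastin receptor complex had 2 of 3 lower and a median of -0.01. For DOX1X against PBS and for DOX4X against DOX1X, 0 genes of any of the pathway lists passed the threshold with edgeR. DESeq2 called Mmp9 lower for DOX1X against PBS. The cross-linking median was -0.11 for DOX1X against PBS and -0.37 for DOX4X against DOX1X, and the integrin median was -0.10 and -0.33.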

How the data were processed

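The deposited table holds raw counts, whole-number read counts per gene with no normalization by the authors, for 11 libraries. The GRCm39 build and the tools STAR 2.7.9a, featureCounts 2.0.1, SAMtools 1.17, Trim Galore 0.6.6, FastQC 0.11.5 and MultiQC 1.7 are listed per the submitters' processing notes. For annotation, strand setting and multimapping reads, the choice is not given in the sources used here. The labels number mice within groups as biological replicates. Genes were kept by filterByExpr (17838 of 24718), scaled by TMM and tested with edgeR 4.0.16 (R 4.3.3, quasi-likelihood, two-sided, all 11 libraries, group means, Benjamini-Hochberg over all genes tested, threshold 0.05). The 95% intervals use edgeR's degrees of freedom. Levels are TMM-scaled CPM; log2 CPM for correlations used a prior count of 2, and marker levels a pseudocount of 1. Exon and coding lengths and overlaps came from GENCODE M21 (GRCm38), another build than the counts. Members and lists were chosen with earlier results of these data known. All 10 members are named, and of each pathway list at most the 2 genes with the smallest p for DOX4X against PBS plus any past the threshold. The fit was tested on simulated data. Alternatives were RLE and upper-quartile factors, no filter or 5 CPM in 3 libraries, DESeq2 1.42.0, limma-voom (limma 3.58.1), a robust prior, the compared groups alone, a replicate block, a flow cell term or fits within a flow cell, the blood marker covariate and each library left out. A flow cell term without PBS 4, correlations and overlap counts without PBS 4, calls per list by each tool, and coding length were added after seeing the data.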

Additional observations from a re-analysis of the deposited data

Results flagged for a closer look

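In the groups of 4 libraries, 3 single values stood apart from the rest of their group, with a gap to the nearest library above Dixon's 95% critical value of 0.829 of the group's range. Fbn1 in DOX4X 4 was at 1127 CPM, while the other DOX4X libraries lay between 853 and 869 CPM; it was still below the lowest PBS library. Fbn2 in PBS 3 was at 73.0 CPM, above 52.9 to 55.9 CPM in the other PBS libraries. Mfap5 in DOX4X 1 was at 6.58 CPM, below 15.2 to 16.8 CPM in the other DOX4X libraries. Chance alone marks about 1 in 20 groups, and each of the 10 genes was looked at in PBS and DOX4X. Without DOX4X 1 the Mfap5 difference from PBS was 1.43 on the log2 scale, without DOX4X 4 the Fbn1 difference was -0.75, and without PBS 3 the Fbn2 difference was -0.45.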

How the results depend on the processing

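For DOX4X against PBS the count of members past the threshold was 0 with edgeR and 5 with DESeq2, and the leave-outs gave 0 to 1. The call was Fbn1 without PBS 4 and Mfap2 without DOX1X 3. Every other alternative gave 0, as did all alternatives of DOX1X against PBS and DOX4X against DOX1X. Over all genes the DOX4X against PBS calls were 26 with edgeR, 590 with DESeq2, 56 with limma-voom, 10 with the replicate block, 6 with a flow cell term, 1 with the blood marker covariate, 1 with the compared groups alone, and 0 to 80 with a library left out (80 without PBS 4, 47 without DOX1X 3, and 0 without DOX4X 1, 2 or 3). They were 0 when a flow cell term was fitted and PBS 4 left out. DOX1X against PBS had 1 call, 49 with DESeq2 and 6 with the replicate block; DOX4X against DOX1X had 1, 27 and 2. Same-numbered libraries correlated at -0.12 to 0.35 in their deviations from group means, highest for DOX1X 3 and DOX4X 3, both on flow cell 2. The pairs that share flow cell 1 gave -0.02 (PBS 1 and DOX1X 1) and 0.10 (PBS 2 and DOX1X 2). Libraries with different numbers were not compared, so whether the replicate numbers pair the mice was not settled. The replicate block left 0 members past the threshold in each comparison. It lost the call of Itgb5 (edgeR adjusted p = 0.084).

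Of 229 member values for DOX4X against PBS, 212 kept their sign and side of the threshold, 7 passed it and 10 changed sign; for DOX1X against PBS 236 of 239 and for DOX4X against DOX1X 232 of 239 kept both. In DOX4X against PBS, Fbln2 changed sign with the replicate block (-0.081) and in leave-outs (-0.16 to 0.23), Eln with the blood covariate (0.71) and in leave-outs (-0.40 to 0.28), and Fbln1 under a flow cell term (0.14, and 0.046 without PBS 4). In DOX1X against PBS, Eln (0.24) and Fbln2 (0.057) changed sign with the blood covariate, and Fbln2 in leave-outs (-0.83 to 0.18). In DOX4X against DOX1X, Mfap2 (0.029) and Fbln1 (0.22) changed sign with flow cell as a term, and with PBS 4 also left out (0.028 and 0.22). PBS 4 takes no part in that difference. Fbln2 changed sign in leave-outs (-0.13 to 0.88). The fits within a flow cell gave the same values as the flow cell term and are not a separate alternative, though the counts out of 239 include both. Of the pathway genes, flow cell as a term turned Emilin1 (0.084) and Adamtsl4 (0.087, and 0.063 without PBS 4), and the blood covariate turned Efemp1 (0.053). The cause of these changes was not tested. The 4 pairs of members past the threshold became 0 on deviations from the group means, 0 without the 2 farthest libraries and 2 without PBS 4. The 5 CPM filter gives no value for Mfap4. The protein table planned for coding length was not used here; GENCODE coding exons took its place.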
